A study of Mus musculus with 4 samples.

Results

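*Hal* encodes histidine ammonia-lyase, and it was followed here together with the other genes of the 2 routes by which histidine is used up: *Uroc1*, *Amdhd1* and *Ftcd* on the degradation route, and *Hdc* and *Hnmt* on the histamine route. The 6 genes were taken by symbol, with *Hal* as the lead gene because of its difference between the groups in these same libraries. Of the 6, 4 had a row among the 21462 genes of the table, namely *Hal*, *Amdhd1*, *Hdc* and *Hnmt*, and 3 of them averaged 10 or more across libraries and entered the fit. *Uroc1* and *Ftcd* had no row, where the smallest sum of the 4 values in any row was 4.

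The RNA came from cells sorted as smooth muscle cells out of lungs of C57BL/6 mice. There were 2 Tet3 mutant and 2 control libraries, each described as a separate animal. In the mutants, labelled Mut, a floxed *Tet3* had been deleted in adults by a tamoxifen-inducible Cre recombinase under the control of the α-SMA promoter. Cells were sorted by a tdTomato reporter after removal of CD45+ and Ter-119+ cells. The methods of the paper give the tamoxifen dosing without naming a group. Controls, labelled WT, lacked the floxed allele. The paper describes the controls of its experiments in general as carrying the Cre, the reporter or both, and labelling of sorted cells needs both. The sort was thus aimed at cells in which the α-SMA promoter was active, and these need not all be airway smooth muscle. Marker RNA of endothelial, epithelial and immune cells was also in the libraries, as given below, so the RNA did not come from smooth muscle alone. Age at sorting and sex are not in the labels.

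In mammals, histidine ammonia-lyase removes the amino group of histidine to give urocanate. Urocanase (*Uroc1*) and imidazolonepropionase (*Amdhd1*) carry the product on to formiminoglutamate, and formimidoyltransferase cyclodeaminase (*Ftcd*) hands the formimino group to tetrahydrofolate and releases glutamate. The whole route is best known in liver, whereas in the epidermis urocanate accumulates, since the later enzymes are scarce there. On the other route histidine decarboxylase (*Hdc*) makes histamine, stored by mast cells and basophils and known in human airways for contracting smooth muscle. Histamine N-methyltransferase (*Hnmt*) inactivates histamine inside cells.

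The regions around the start sites are shown because TET3 acts on methylated cytosines, which in mammals lie mostly in CG dinucleotides. The paper reports that the hydroxymethylcytosine made by TET3 drops sharply at start sites. In highly expressed contractile genes it found the loss in mutants inside genes and not at promoters. The RNA libraries hold no measure of methylation, so a part of these windows in the *Hal* values was not tested. Each sequence below runs from 250 bases before to 50 bases after the start in RefSeq (GRCm38.p6), written 5′ to 3′ on the strand of the gene, with CG dinucleotides in capitals.
*Hal*, chr10:93488518-93488817, plus strand: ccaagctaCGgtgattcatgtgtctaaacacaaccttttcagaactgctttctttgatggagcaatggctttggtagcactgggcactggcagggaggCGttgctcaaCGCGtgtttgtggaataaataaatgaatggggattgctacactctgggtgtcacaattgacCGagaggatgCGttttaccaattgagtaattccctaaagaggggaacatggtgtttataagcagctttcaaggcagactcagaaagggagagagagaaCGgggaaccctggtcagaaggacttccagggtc
*Amdhd1*, chr10:93539984-93540283, minus strand: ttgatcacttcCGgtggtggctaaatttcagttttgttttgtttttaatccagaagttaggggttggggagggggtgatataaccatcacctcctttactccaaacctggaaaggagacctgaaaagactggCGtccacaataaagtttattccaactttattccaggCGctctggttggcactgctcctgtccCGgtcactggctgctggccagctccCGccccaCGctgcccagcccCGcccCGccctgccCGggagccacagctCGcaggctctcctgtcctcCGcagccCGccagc
*Hdc*, chr2:126618629-126618928, minus strand: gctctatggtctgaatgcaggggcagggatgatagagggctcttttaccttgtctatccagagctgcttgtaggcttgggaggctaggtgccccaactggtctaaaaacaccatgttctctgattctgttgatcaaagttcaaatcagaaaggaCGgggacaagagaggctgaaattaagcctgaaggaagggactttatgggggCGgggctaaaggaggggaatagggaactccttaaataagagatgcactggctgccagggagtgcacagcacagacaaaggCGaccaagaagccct
*Hnmt*, chr2:24049330-24049629, minus strand: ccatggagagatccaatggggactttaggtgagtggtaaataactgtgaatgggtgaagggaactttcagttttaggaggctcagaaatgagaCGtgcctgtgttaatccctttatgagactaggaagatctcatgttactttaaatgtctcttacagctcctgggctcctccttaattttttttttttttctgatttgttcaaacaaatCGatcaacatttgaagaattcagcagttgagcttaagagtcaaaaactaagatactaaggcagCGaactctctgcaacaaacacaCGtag
The *Hal* window held 7 CG dinucleotides, which is also the median of 32851 windows of this kind, and 51.4% of those held as many or fewer. *Amdhd1* held 12, *Hdc* 3 and *Hnmt* 4. Among motifs searched on both strands, TATAAA had 1 match in the *Hal* window and 0 in the other 3, and 13.6% of all windows had one. The *Hal* match reads on the strand opposite to the gene. CCAAT, found in 37.4% of all windows, had 1 match each at *Hal* and *Hnmt*. GGGCGG, present in 35.7%, had 3 matches at *Amdhd1* and 1 at *Hdc*, and each of these contains a CG. Neither CACGTG (7.15% of windows) nor the CArG box bound by serum response factor (1.63%) had a match in the 4 windows. The *Hdc* window lies inside the span that the table gives that gene.

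Levels are given as the authors' scaled and rounded read numbers, here called normalized counts. The libraries hold an estimated 6.32 M to 7.56 M reads assigned to genes, and levels of 3 or less were treated as not separable from 0 by counting (the floor). The targeted gene *Tet3* stood at 1847 and 1926 normalized counts in the controls, and at 1534 and 1444 in the mutants (replicate 1, then 2, here and throughout). Its log2 fold change was -0.34 (standard error 0.10), so most of its signal remained in the mutants. Values per gene do not show which exons the reads came from. Control replicate 2 stood apart, with 2 normalized counts of the X-linked *Xist* against 5214 to 6781 in the other libraries, and 774 of the Y-linked *Ddx3y* against 0. By these 2 genes it came from a male and the other libraries from females. Sex thus differed within the control group and cannot be told apart from other features of that library. The labelled cell type was present by its markers: all 10 smooth muscle genes followed were tested, with *Myh11* at 1330 to 2473 and *Acta2* at 686 to 1032. They summed to 10762 and 11305 in the controls and 12895 and 11870 in the mutants. This lay below the endothelial sum given next in every library, and below the epithelial sum in control replicate 2. Markers of other cells were present too, with summed values of 13723 to 15449 for 8 endothelial genes, 6974 to 12512 for 12 airway and alveolar epithelial genes, 6055 to 9891 for 12 macrophage genes and 622 to 1612 for 9 neutrophil genes. Median log2 fold changes (Tet3 mutant over control) were 0.46 for smooth muscle, 0.10 for endothelial, -0.35 for epithelial, 0.44 for macrophage, 0.80 for neutrophil and 0.31 for neuronal and neuroendocrine markers, against -0.0069 for all 16659 genes tested. These marker medians rested strongly on single libraries. Without control replicate 1 they were 0.21 for smooth muscle, 0.21 for endothelial, -0.75 for epithelial, 1.44 for neutrophil and -0.14 for neuronal markers, and without control replicate 2 they were 0.73, -0.0026, -0.11, 0.60 and 1.07 in the same order. The endothelial median was also 0.037 without the first mutant library and 0.15 without the second. The macrophage median was 0.28 without control replicate 2 and 0.66 without Tet3 mutant replicate 1. In bulk RNA of this kind, fewer cells of a type and less RNA per cell cannot be told apart.

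*Hal* was present in both controls and near 0 in both Tet3 mutants. Its normalized counts were 279 and 291 in the controls and 2 in either mutant. The control mean was 285 ± 8.49 (SD, n = 2), and the mutant mean of 2 lay under the floor. By the estimated scaling factors these values stand for 290 and 277 reads in the controls and 2 reads in each mutant, so that 567 reads stood against 4. The level was 144-fold lower in the mutants, with an exact 95% counting interval of 56.1- to 532-fold. Intervals of this kind hold for counting error alone, because the reads carry no molecular identifiers and need not be independent. On the log2(value + 1) scale the difference was -6.57 with a standard error of 0.33, a figure that depends on the added constant and was -4.87 with 8 added in place of 1. *Hal* was chosen for this difference, so these values are a description and carry no test.

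The controls were close to each other for *Hal* although control replicate 2 stood apart for many genes. The ratio of control replicate 2 to control replicate 1 was 1.05 (95% counting interval 0.884 to 1.24) for *Hal*, an interval that holds equality. For *Hdc* the same ratio was 2.04 (1.82 to 2.29), and for *Hnmt* it was 1.52 (1.28 to 1.82). Leaving out 1 library at a time moved the *Hal* log2 fold change only between -6.60 and -6.54.

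Per length, as TPM (the value divided by exon length and scaled to the same total in each library), *Hal* stood at 35.9 and 36.1 in the controls and at 0.259 and 0.255 in the mutants. Its mean level per length was at the 59.4th percentile of the table in controls and at the 1.28th percentile in mutants. *Hal* (ENSMUSG00000020017) spans chr10:93488768-93519304 on the plus strand of GRCm38, with 5549 bases of exon in all, and its longest coding transcript has 20 exons and encodes 657 residues. No annotated gene overlaps it on either strand, and the same holds for the other 5 genes.

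The remaining genes of the degradation route were at or near the floor. *Amdhd1* (ENSMUSG00000015890) had 4 and 3 normalized counts in the controls and 3 and 0 in the mutants, with overlapping groups. Its ratio of mutants to controls, from 3 and 7 reads, was 42.1% with a 95% counting interval of 7.02% to 184%, so no difference was detectable at this depth. The value of 0 in Tet3 mutant replicate 2 allows a value of up to 3. Per length, *Amdhd1* stood at 1.02 TPM in controls and 0.446 in mutants (means of 2 libraries). In the controls, then, *Hal* was measured at a level per length well above that of the only later enzyme of its route with a row.

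*Hdc* (ENSMUSG00000027360, chr2:126593667-126619299) was measured in all libraries. Its normalized counts were 439 and 896 in the controls and 330 and 499 in the mutants. The groups overlapped, since Tet3 mutant replicate 2 lay above control replicate 1. The means were 668 ± 323 and 414.5 ± 120 (SD, n = 2 each), and the log2 fold change was -0.63 (standard error 0.39). Control replicate 2 carried most of this difference, and without it the value was -0.11. The order of the libraries was the same as for the summed epithelial markers, at 8344 and 12512 in the controls and 6974 and 8532 in the mutants. That order was not particular to them, as the sums of the epidermal, histidine transport and glutamate lists followed below also had it. Of the 12 epithelial genes, 4 had a log2 fold change above 0, among them *Foxj1*, at 249 and 301 against 535 and 431. The part of epithelial cells in the *Hdc* values was not tested.

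*Hnmt* (ENSMUSG00000026986, chr2:24002910-24049394) had 218 and 332 normalized counts in the controls and 166 and 209 in the mutants. Both mutants lay below both controls, with Tet3 mutant replicate 2 close to control replicate 1. The means were 275 ± 80.6 and 188 ± 30.4 (SD, n = 2 each), and the log2 fold change was -0.53 (standard error 0.26), or -0.23 without control replicate 2. Macrophages are a known site of *Hnmt* expression, and their summed markers stood at 7788 and 6055 in the controls and 8345 and 9891 in the mutants; their part in the *Hnmt* values was not tested.

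In order of level per length, the controls ran from *Hnmt* (87.9 and 129 TPM) through *Hdc* (49.0 and 96.7) and *Hal* (35.9 and 36.1) to *Amdhd1* (1.18 and 0.854). *Hnmt* and *Hdc* overlapped in that order, and *Hal* lay below both. In the mutants *Hnmt* (67.5 and 83.7) and *Hdc* (37.2 and 55.3) kept this order without overlap, and *Hal* and *Amdhd1* were both under the floor or at it. *Hdc* exceeded *Hnmt* by a ratio of 1.99 to 2.70 in raw normalized counts in every library, and its exons cover 6389 bases against 1769.

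**Figure D1:**
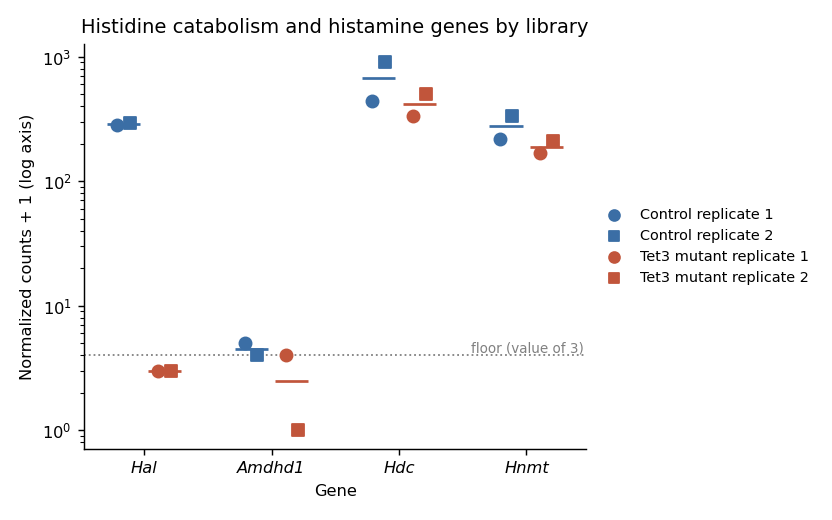
Normalized counts plus 1 (log axis) of *Hal*, *Amdhd1*, *Hdc* and *Hnmt* in each library, with bars at the group means (n = 2 each) and a dotted line at the floor of 3. *Hal* stands at 279 and 291 in controls and at 2 in each mutant, and in the other 3 genes the groups lie much closer.

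Limma called 0 of the 3 members tested at an adjusted p under 0.05, where it called 0% of the 16659 genes in all (1112 of them, or 6.68%, had an unadjusted p under 0.05). The groups did not overlap in 2 of the 3 members tested (*Hal* and *Hnmt*), and they did not overlap in 39.0% of all genes tested. All 3 members had a log2 fold change under 0, with a median of -0.63, but the contrast was used to choose the lead gene and nothing is read from these counts. An exact permutation test of 1 gene with 2 libraries a group has 0.333 as its smallest possible p.

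**Figure D2:**
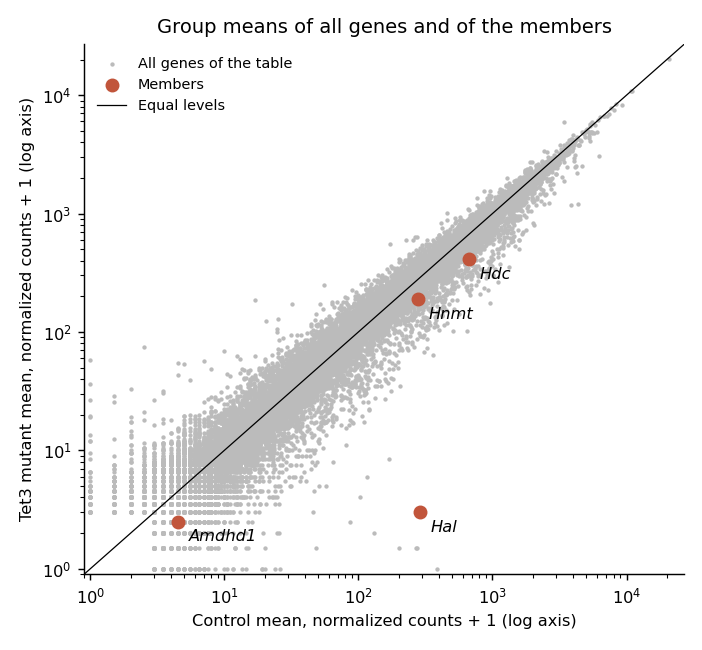
Mean of the 2 Tet3 mutant libraries against the mean of the 2 control libraries for all 21462 genes, as normalized counts plus 1 on log axes, with the 4 members marked and a line at equal levels. *Hal*, at 285 in controls and 2 in mutants, lies far below the line, and *Hdc*, *Hnmt* and *Amdhd1* lie within the cloud of genes.

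*Hal* lies on chromosome 10 in a row of genes that were mostly even between the groups. Downstream, *Amdhd1* is transcribed towards *Hal* from the opposite strand, with 4033 bases between their ends. Upstream, *Lta4h*, which encodes leukotriene A4 hydrolase, ends 3.89 kb before *Hal* begins and is read from the same strand. *Lta4h* had 640 and 709 normalized counts in the controls and 673 and 745 in the mutants, so its groups overlapped.

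Of 14 other genes of the table that start within 500 kb of *Hal*, 8 were tested, and 0 of them were called by limma or had an unadjusted p under 0.05. Their log2 fold changes ran from -0.08 to 0.50 with a median of 0.09, and 7 of 8 were above 0. The groups did not overlap in 4 of the 8, or 50%, against 39.0% of all genes tested. *Ntn4*, which encodes the basement membrane protein netrin 4, had 708 and 879 normalized counts in the controls and 1008 and 1006 in the mutants, a log2 fold change of 0.35 (standard error 0.14, limma adjusted p 0.681). The cyclin-dependent kinase gene *Cdk17* and the Ets factor gene *Elk3* had 0.11 and 0.14, the splicing gene *Snrpf* 0.07, the deubiquitinase gene *Usp44* 0.50 with a standard error of 0.51, the aminopeptidase gene *Metap2* 0.04 and *Vezt*, which encodes the junction protein vezatin, -0.08 on the same log2 scale. The other 6, among them *Amdhd1*, *Mir1931*, *Gm32688*, *Gm17745*, *Gm15915* and *Gm3571*, had no value above 6.

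**Figure D3:**
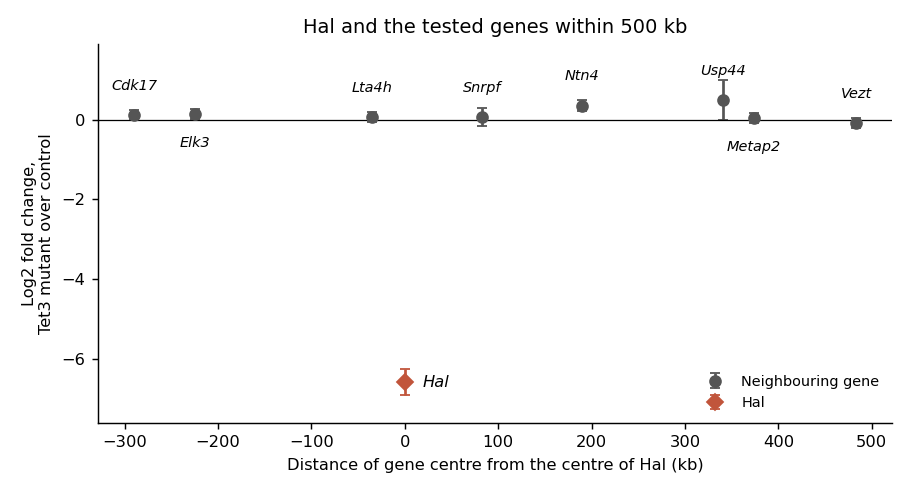
Log2 fold change (Tet3 mutant over control) with its standard error for *Hal* and the 8 tested genes within 500 kb, against the distance of each gene's centre from that of *Hal* in kb. *Hal* stands at -6.57, and its neighbours lie between -0.08 and 0.50.

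A pattern of this kind was rare in the table. Both controls at 50 or more with both mutants at 5 or less was met by 2 of 21462 genes (0.00932%), *Hal* and *Atp1a4*, and the opposite pattern by 1 gene (0.00466%), the immunoglobulin segment *Ighv1-54*. *Hal* had the largest sum of the 3. It was chosen for its difference in these same values, so its place here was fixed beforehand and carries no test. The 21462 genes also include those too low to meet either pattern. *Atp1a4*, which encodes the sodium pump subunit known from sperm, had 97 and 106 normalized counts in the controls and 3 in each mutant. *Ighv1-54* had 3 and 0 in the controls and 58 and 89 in the mutants, and its values are uncertain because such segments share sequence with near copies.

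The 10 named genes with the profile most like that of *Hal* were found by the root-mean-square difference between profiles on the log2(value + 1) scale, each centred on its own mean over the 4 libraries. *Atp1a4* was closest, at 0.95, and the tenth was at 2.10. In between came *Zan*, *Alb*, 2 immunoglobulin kappa variable segments, *Tdrd5*, *Pbld1*, *Fbp2* and *Proz*, and the tenth was *Pkdrej*. Zonadhesin (*Zan*), a sperm protein, had 37 and 193 normalized counts in the controls and 5 in each mutant. Albumin (*Alb*) had 12 and 35 in the controls and 0 and 2 in the mutants. The muscle fructose bisphosphatase gene *Fbp2* had 7 and 164 in the controls and 0 and 3 in the mutants, so that 1 control library held nearly all of its signal. *Proz*, which encodes the plasma protein Z, had 64 and 103 in the controls against 4 and 27 in the mutants. The closer of the 2 immunoglobulin kappa segments had 31 and 29 in the controls and 4 in each mutant. The other segment had 20 and 23 in the controls and 2 and 4 in the mutants. The libraries of a group were thus near equal for *Hal*, *Atp1a4* and the closer segment, and the controls were also near equal for the other segment. *Zan* and *Fbp2* differed more between the controls. These genes were selected on the contrast itself, and likeness over 4 libraries is a description.

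**Figure D4:**
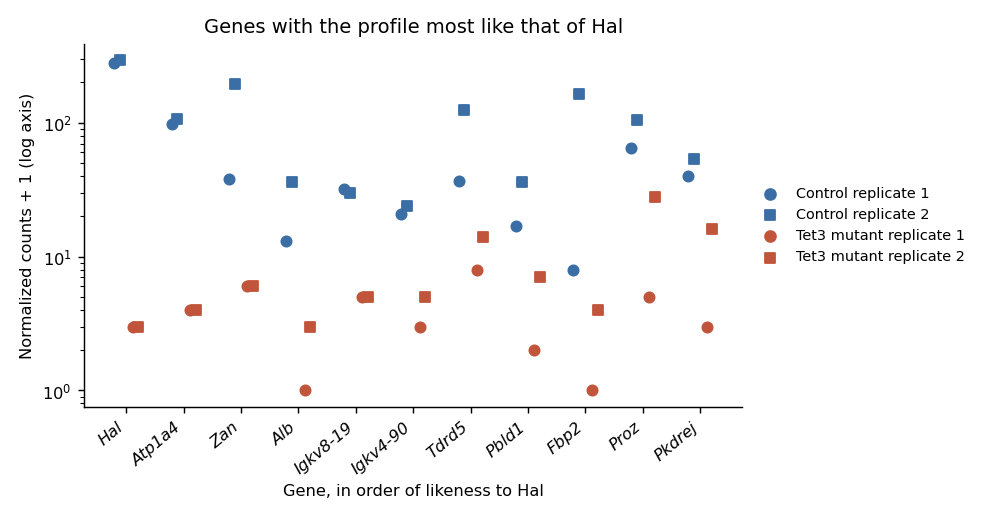
Normalized counts plus 1 (log axis) in each library for *Hal* and the 10 named genes with the most similar profile, in order of likeness. In all 10 both mutants lie below both controls, but no other gene reaches the 279 and 291 that *Hal* has in both controls.

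Of the markers followed for the tissues in which *Hal* is best known, most had no row or low values, and *Cyp2e1* was the exception. The part of such cells in the *Hal* values was not tested. Of 14 epidermal genes 8 had no row, among them *Flg*, *Krt1* and *Krt14*, and the summed values of the others were 60 and 86 in the controls and 43 and 77 in the mutants. Of 12 hepatocyte markers 7 had no row, among them *Ttr* and *Apoa1*. The summed values of the others were 178 and 369 in the controls and 344 and 393 in the mutants, mostly from *Cyp2e1*. *Alb* was lower in both mutants, as given above, whereas fetuin A (*Ahsg*) had 15 and 14 normalized counts in the controls and 44 and 50 in the mutants, and *Cyp2e1*, a cytochrome P450 gene also known from lung, had 141 and 289 against 300 and 326. None of the 3 hepatocyte genes tested was called by limma (2 at an unadjusted p under 0.05, *Ahsg* above and *Alb* below 0).

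The genes that act around the route were followed as 7 lists of 94 genes, of which 81 had a row and 78 were tested. Limma called 0 of the 78, of which 7 had an unadjusted p under 0.05, or 8.97% against 6.68% of all genes: 3 were higher in the mutants (background 3.83%) and 4 lower (2.85%). Over the 78, the groups did not overlap in 51.3%, against 39.0%.

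Transporters that carry histidine or histidine dipeptides numbered 9 tested genes, with a median log2 fold change of -0.10, which was -0.25 without control replicate 1 and 0.0035 without control replicate 2. The proton-coupled peptide carrier *Slc15a1* had 79 and 145 normalized counts in the controls and 9 and 50 in the mutants, a log2 fold change of -2.26 (standard error 0.83, limma adjusted p 0.681). *Slc6a14*, a carrier of neutral and basic amino acids, had 220 and 398 against 101 and 156. The neutral amino acid exchanger *Slc7a8* had 117 and 104 against 146 and 202, a log2 fold change of 0.63. Both mutants thus lay below both controls for *Slc15a1* and *Slc6a14* and above them for *Slc7a8*. They also lay below for the large neutral amino acid carrier *Slc7a5*, at 162 and 203 against 126 and 161. Of the 9 genes, then, 3 were lower and 1 higher without overlap, where 39.0% of all genes tested did not overlap. Limma called 0 of the 9. The lysosomal histidine carriers *Slc15a3* and *Slc15a4* had 0.49 and -0.10 on the log2 scale, with overlapping groups.

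Other uses of histidine moved in both directions. The histidyl-tRNA synthetase genes *Hars* and *Hars2* had log2 fold changes of 0.08 and 0.09, and the protein histidine methyltransferase genes *Mettl9* and *Setd3* had 0.26 and -0.13. Carnosine synthase (*Carns1*) had 33 and 24 normalized counts in the controls and 51 and 29 in the mutants, a log2 fold change of 0.44 with overlapping groups. *Carnmt1*, which encodes the methyltransferase that turns carnosine into anserine, had 48 and 60 against 38 and 34, and its log2 fold change of -0.57 (standard error 0.31, limma adjusted p 0.689) was the largest in size of the list. The carnosine dipeptidase gene *Cndp2* had 509 and 726 against 436 and 614, with overlapping groups. The median of the 7 tested genes was 0.08, and 0 were called by limma or had an unadjusted p under 0.05. The groups did not overlap in 4 of the 7 (*Hars*, *Hars2*, *Mettl9* and *Carnmt1*), against 39.0% of all genes tested. The median was 0.029 without control replicate 1, 0.050 without control replicate 2 and 0.041 without Tet3 mutant replicate 1.

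Histamine receptors were represented by *Hrh1*, the receptor through which histamine contracts airway smooth muscle in humans, and *Hrh2*. *Hrh1* had 33 and 44 normalized counts in the controls and 55 and 52 in the mutants, and *Hrh2* had 47 and 58 against 84 and 68. Both mutants lay above both controls for either receptor, where the groups did not overlap in 39.0% of all genes tested. The log2 fold changes were 0.48 and 0.53, with standard errors of 0.31 and 0.28 and limma adjusted p of 0.711 and 0.689. *Hrh3* and *Hrh4* had no row. Among genes of histamine storage, uptake and oxidation, diamine oxidase (*Aoc1*) had 17 and 16 normalized counts against 26 and 33, and monoamine oxidase A (*Maoa*) 451 and 454 against 537 and 494. The vesicular transporter *Slc18a2* had 5 to 11 in the 4 libraries and was not tested. *Slc22a3*, which takes up histamine, had 427 and 126 in the controls and 298 and 318 in the mutants, so the controls lay on either side of the mutants. The median of the 6 tested genes of this list was 0.07 (0.032 without control replicate 1, 0.13 without Tet3 mutant replicate 2), and 0 had an unadjusted p under 0.05.

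The mast cells and basophils that store histamine were nearly absent by their defining genes. *Cpa3* had 7 to 19 normalized counts, and *Mcpt4*, *Mcpt8*, *Tpsb2*, *Cma1*, *Fcer1a*, *Ms4a2*, *Prss34* and *Cd200r3* each had 13 or fewer in every library, against 330 to 896 for *Hdc*. *Tpsab1* had no row. The sums of the 12 genes with a row were 2243 and 1705 in the controls and 1988 and 2083 in the mutants, and most of that came from *Kit* and *Gata2*, which other lung cells also express. *Hpgds*, a prostaglandin D synthase gene also known from macrophages, had 195 and 151 against 245 and 277.

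The folate enzymes to which *Ftcd* would pass its one-carbon unit numbered 24, all tested, with a median log2 fold change of 0.04, which stayed between -0.025 and 0.038 when any 1 library was left out. The mitochondrial enzyme gene *Mthfd2* had 88 and 82 normalized counts in the controls and 140 and 155 in the mutants (log2 fold change 0.79, standard error 0.21, limma adjusted p 0.681). *Aldh1l1*, whose product oxidizes formyl-tetrahydrofolate, had 320 and 682 against 171 and 196 (-1.35, 0.37 and 0.681 in the same order). Of the other 22 genes, 0 had an unadjusted p under 0.05. Of 10 genes for the fates of glutamate, the end product of the route, the alanine aminotransferase gene *Gpt* had 194 and 544 against 61 and 177, and *Aldh18a1*, of proline synthesis, 285 and 161 against 341 and 327. The median of that list was -0.14. It was -0.31 without control replicate 1, 0.017 without control replicate 2, -0.011 without the first mutant library and -0.27 without the second.

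Other amino acid catabolic enzymes known from liver gave a median log2 fold change of -0.33 over 20 tested genes, 4 of them above 0, and 8 of the 28 genes had no row. Without control replicate 2 this median was -0.06, and without control replicate 1 it was -0.61. *Aass*, of lysine breakdown, had 158 and 287 normalized counts against 93 and 151, and proline dehydrogenase (*Prodh*) had 273 and 383 against 222 and 197. None of the 20 was called by limma, and 2 had an unadjusted p under 0.05. The lowest log2 fold change in this list was -1.60, of *Gnmt*, so none came near that of *Hal*.

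**Figure D5:**
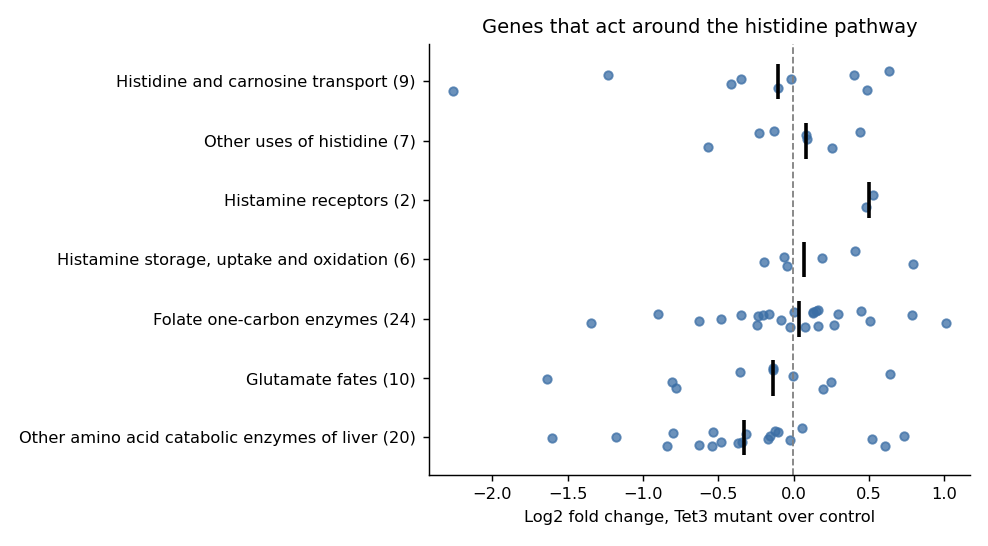
Log2 fold change (Tet3 mutant over control) of each tested gene in 7 lists around the histidine route, with the number tested in brackets, a black bar at each list's median and a dashed line at the median of all genes (-0.0069). The list medians run from -0.33 to 0.50 and the single genes from -2.26 to 1.01.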

How the data were processed

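The 4 total RNA libraries were assigned to the Tet3 mutant (2) or control (2) group from their titles. By the submitters' processing notes and methods, reads were trimmed (Trimmomatic 0.36), aligned to mm10 (STAR 2.6.0c), counted over exons (featureCounts, Subread 1.6.0; multi-mapping and multi-gene reads excluded; use of strand not given in the sources used here) and scaled with DESeq2. What the authors deposited is therefore a score, rounded normalized counts and not raw reads. Each library's scaling factor was estimated from gaps and doublings among low values (error at most 0.0002 on 4 simulated libraries). Genes with a mean of at least 10 were fitted on log2(value + 1) with limma 3.58.1 in R 4.3.3, with a mean-variance trend, Benjamini-Hochberg adjustment and a threshold of 0.05; standard errors are moderated. This fit was tested on simulated data with equal dispersion in all genes and no outlying library. That test therefore does not show how the fit handles a library like control replicate 2. No count test was run.

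Members, lists and named genes were chosen with earlier results of these data known. Named genes were the members, genes within 500 kb of *Hal*, the 10 most like it, all-or-none genes, and in each list the extreme genes averaging 50 or more whose groups stood apart; others named were chosen after their values were seen. Exon lengths and overlaps came from GENCODE M21 (GRCm38), in which 98.9% of genes had the table's coordinates. Alternatives were other pseudocounts, minimums and scalings, no trend, a replicate block and leaving out each library.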

Additional observations from a re-analysis of the deposited data

How the results depend on the processing

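When eBayes used no trend, 1 gene was called across the table and 1 member, in both cases *Hal*. Its limma adjusted p was 0.0307 there, against 0.0753 to 0.538 under the other settings that kept all 4 libraries. The *Hal* log2 fold change was -6.57 with and without the trend, and its standard error was 0.33 with it and 0.13 without it. *Hal* was chosen for this contrast, so the call is a description and carries no test. With 8 added before the logarithm, the *Hal* log2 fold change was -4.87, as the larger constant compresses low values. Leaving out 1 library in turn, with the lone library assumed to vary like the others, gave 0 genes called, 0 members called, 0 genes of the pathway lists called and a *Hal* log2 fold change from -6.60 to -6.54. The same settings gave -1.14 to -0.11 for *Hdc* and -0.83 to -0.23 for *Hnmt*, with the value nearest 0 without control replicate 2. Hepatocyte markers reversed to a median of -1.37 with a mean of at least 1, since low genes then entered the list. Equal totals raised the share of genes at an unadjusted p under 0.05 that were higher in the mutants from 57.4% to 69.2%, and the replicate block lowered it to 42.8%. Those genes numbered 273 without Tet3 mutant replicate 1, 414 without Tet3 mutant replicate 2 and 3366 without control replicate 1. Same-numbered samples deviated together by 0.13 (Pearson, 16659 genes, 2 pairs), which does not establish pairing; with the replicate block 0 genes and 0 members were called and *Hal* stayed at -6.57. With 2 libraries per group and values of 2 in the mutants, depth limits *Hal* there to the interval given.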

Other observations

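Of the 4 tested genes of the kynurenine branch of tryptophan breakdown among the liver enzymes followed, singled out after their values were seen and with no test of the group, 3 had higher values in both mutants than in both controls and 1 had overlapping groups. The groups did not overlap in either direction in 39.0% of all genes tested. *Kmo*, on chromosome 1, had 143 and 153 normalized counts in the controls and 231 and 263 in the mutants, with a log2 fold change of 0.73 and a standard error of 0.17 (limma adjusted p 0.681). *Haao* had 51 and 67 against 92 and 77, and *Kynu* had 51 and 27 against 57 and 57. *Tdo2*, which opens the branch in liver, had 12 and 40 against 17 and 24, with overlapping groups and a log2 fold change of -0.12.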
